A study of Mus musculus with 6 samples.

Results

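The 10 genes described here belong to the unfolded protein response and the integrated stress response. They were taken as the rows of the raw count table named Hspa5, Hsp90b1, Xbp1, Atf4, Ddit3, Trib3, Chac1, Asns, Dnajb9 and Creb3l1, and all 10 were found among 48440 gene rows. All 10 also passed the filter on low counts, which left 15257 genes to test.

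Samples of BEC (cartilage engineered from rabbit BMSCs, bone marrow mesenchymal stem cells) were harvested with the entangled murine subcutaneous tissues. Total RNA was extracted, its polyadenylated fraction was sequenced, and the reads were aligned to the mouse genome. Whether RNA of the rabbit graft entered the libraries is not stated, and its part in the mouse counts was not tested. BEC had been wrapped in an electrospun membrane of PCL and collagen without drug (0%-Axitinib group, 3 samples) or with 3% axitinib by mass (3%-Axitinib group, 3 samples), implanted under the skin of young male BALB/c nude mice and collected after 12 weeks. Axitinib is an inhibitor of the VEGF receptor tyrosine kinases, and the comparison asks how the host tissue around the graft differs when the membrane releases it. The sample labels call the first group untreated. It was read as the 0%-Axitinib group because the series design and the treatment protocol name 0% and 3%, and every comparison here rests on that reading. Both groups therefore carried BEC and membrane, and nude mice lack T cells but hold B cells. Each mouse carried a pair of constructs from the same group, and the mouse behind each sample was not given in the sources used here, so the p-values measure the spread between these samples.

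Gene counts summed to 9225518 in the shallowest library and to 18403795 in the deepest. Reads that mapped nowhere in the mouse genome made up 5.47%, 3.84% and 14.9% of the libraries in replicates 1, 2 and 3 of the 0%-Axitinib group and 48.4%, 29.2% and 16.8% in the 3%-Axitinib group. A count of 3, used as the limit of detection, was worth from 0.157 to 0.330 CPM across the libraries (CPM being counts scaled to library size with TMM), which covers counting error only. Replicate 3 of the 0%-Axitinib group stood apart from its group. Its Spearman correlations with the other two, across the tested genes, were 0.891 and 0.893, against 0.978 between replicates 1 and 2. Within the 3%-Axitinib group replicate 2 stood apart, with correlations of 0.945 and 0.951 against 0.978 between replicates 1 and 3.

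The unfolded protein response is set off when unfolded proteins collect in the lumen of the endoplasmic reticulum (ER). IRE1 (gene Ern1) splices the mRNA of Xbp1, ATF6 is cut in the Golgi into a transcription factor, and PERK (gene Eif2ak3) phosphorylates the translation factor eIF2. PERK shares that substrate with PKR, GCN2 and HRI, which respond to viral RNA, amino acid shortage and haem shortage, and together these kinases feed the integrated stress response, in which ATF4 is translated while most protein synthesis slows. Cells that secrete much protein, such as plasma cells, osteoblasts, chondrocytes and fibroblasts, rely on these pathways in normal life. Splicing of Xbp1, cleavage of ATF6, phosphorylation of eIF2 and translation of Atf4 do not show in gene-level read counts, so the values below are mRNA levels.

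With axitinib the ER chaperone Hsp90b1 was lower and 2 genes of the ATF4 branch, Chac1 and Ddit3, were higher. Hsp90b1 was at 0.488 of its 0%-Axitinib mean, Chac1 was 17.4-fold higher and Ddit3 1.53-fold higher. These 3 genes met the thresholds used in the study, a fold change of at least 1.5 with an unadjusted p of at most 0.05, here with the p of edgeR after TMM. The study scaled its levels to the total reads of each sample with DESeq2 and names a general test for comparing 2 groups, without saying which test was used on the sequencing data. With total counts in edgeR, Ddit3 missed these thresholds (0.48) and Hspa5 met them (-0.83). With the p of DESeq2, 5 of the 10 genes met them, Hspa5 (-0.71) and Creb3l1 (1.23) being the other 2, beside 1722 genes higher and 2225 lower among the 26823 it was run on. Of all genes tested in edgeR, 9.54% met this criterion with higher and 11.7% with lower expression in the 3%-Axitinib group. Among the 10 genes these were 2 higher and 1 lower. The same 3 genes were the members whose groups did not overlap, which held for 14.7% (higher) and 16.6% (lower) of all tested genes. The median log2 fold change was 0.33 over the 10 genes, with 7 above 0 and 3 below, and -0.03 over all tested genes.

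At an adjusted p of at most 0.05, edgeR's quasi-likelihood test with Benjamini-Hochberg adjustment called 0 of the 10 genes and 1 of all tested genes (0.00655%), Nr1d1, named after its values were seen. At an unadjusted p of at most 0.05 the same test had 3 of the 10 genes and 3585 of all tested genes. DESeq2's Wald test called 2 of the 10 genes after adjustment, Chac1 and Hsp90b1, and 1703 of the 26823 genes it was run on, while limma-voom called 0 of the 10 and 2 of all. The count over all genes also moved with the samples used. Without replicate 3 of the 0%-Axitinib group edgeR called 1252 genes, and 1 of the 10, Hsp90b1. Without replicate 2 of the 3%-Axitinib group it called 58 genes, and 1 of the 10, Chac1. Scaling to total counts moved the median log2 fold change of all tested genes from -0.03 to -0.16, and 989 genes then met the criterion higher and 2448 lower, against 1456 and 1785 with TMM.

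**Figure D1:**
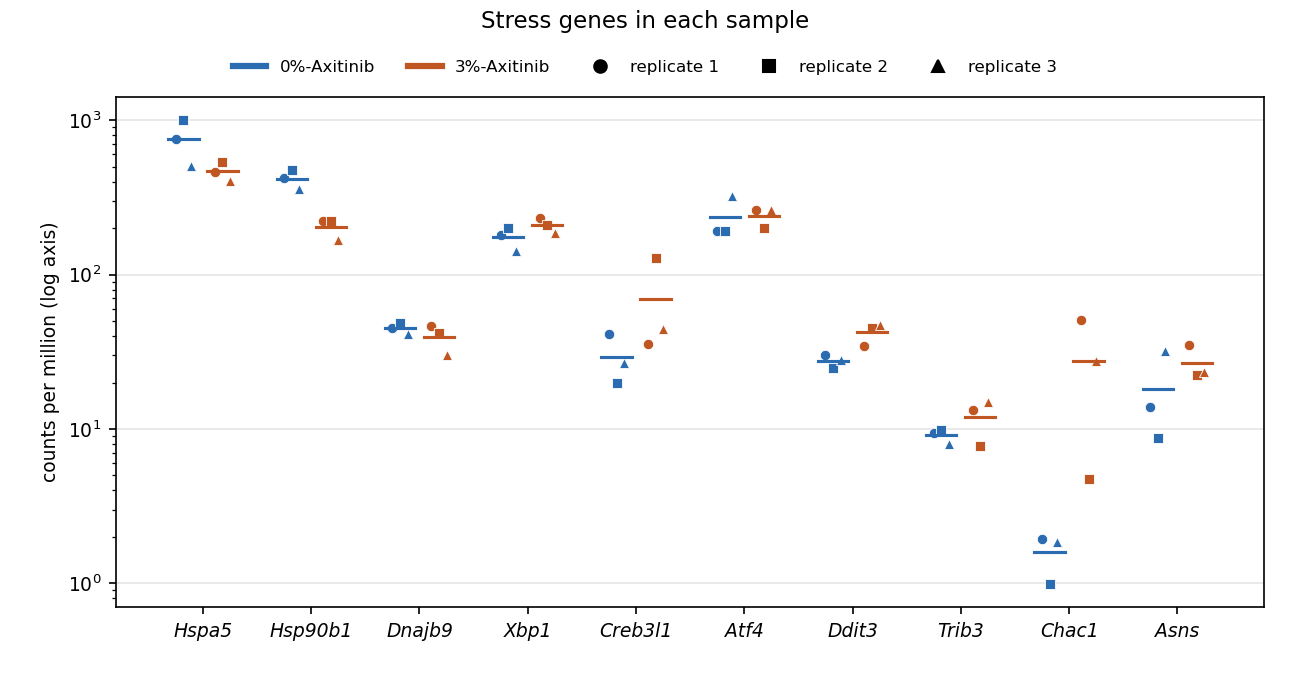
Expression of the 10 genes in each sample, as CPM after TMM normalization on a log axis. Points are samples with 1 shape per replicate number, and horizontal lines are group means (n = 3). The groups of Hsp90b1, Ddit3 and Chac1 do not overlap, and replicate 2 of the 3%-Axitinib group is the lowest Chac1 and the highest Creb3l1 sample of its group.

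Hspa5 encodes BiP, the HSP70 chaperone of the ER lumen that also holds the stress sensors inactive. It was at 754, 1005 and 503 CPM in replicates 1, 2 and 3 of the 0%-Axitinib group and at 460, 534 and 403 CPM in the 3%-Axitinib group. The groups met only at the edge, since replicate 3 of the 0%-Axitinib group lay below the highest 3%-Axitinib sample. The log2 fold change was -0.70 (SE 0.32), with an adjusted p of 0.245 in edgeR's quasi-likelihood test with Benjamini-Hochberg adjustment. Hspa5 did not meet the criterion in all 6 samples, but it did with total counts (-0.83), in DESeq2 (-0.71) and without replicate 3 of the 0%-Axitinib group (-0.92). Without replicate 2 of that group the log2 fold change was -0.44. The 3 tested genes with the most similar course over the 6 samples, among 9953 candidates with a mean of at least 10 CPM, were Mdfic, Gnaq and Vamp4. Their root mean square differences from Hspa5, in centred log2 CPM, were 0.059, 0.085 and 0.088.

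Hsp90b1 encodes GRP94, the HSP90 chaperone of the ER, whose clients include integrins, Toll-like receptors and insulin-like growth factors. It was at 419, 477 and 357 CPM in the 0%-Axitinib group and at 221, 223 and 167 CPM in the 3%-Axitinib group. Every 3%-Axitinib sample was below every 0%-Axitinib sample, and the spread within each group was small beside the gap. The group levels were 418 ± 60.3 CPM (SD, n = 3) and 204 ± 31.7 CPM (SD, n = 3). The log2 fold change was -1.03 (SE 0.24, adjusted p = 0.0975 in edgeR's quasi-likelihood test with Benjamini-Hochberg adjustment). It stayed between -1.14 and -0.91 whichever sample was left out, and the criterion was met each time. Over the alternatives the adjusted p ran from 0.0028 in DESeq2 to 0.281. In GENCODE the gene overlaps a pseudogene on the other strand, 1810014B01Rik, over 4598 bases, and the use of strand in counting was not given in the sources used here. On its own strand it overlaps the processed transcript Gm15344 over 977 bases and the microRNA Gm25745 over 133 bases.

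Dnajb9 encodes ERdj4, a cochaperone of BiP that helps to return IRE1 to its inactive form. It was at 45.2, 48.7 and 41.2 CPM in the 0%-Axitinib group and at 46.4, 41.6 and 30.2 CPM in the 3%-Axitinib group. The groups overlapped, and the log2 fold change was -0.19 (SE 0.21), between -0.32 and -0.036 without replicate 1 or replicate 3 of the 3%-Axitinib group. Xbp1 encodes the transcription factor of the IRE1 arm, which plasma cells need for secretion. Its levels were 181, 201 and 142 CPM against 233, 211 and 187 CPM, again with overlap, and the log2 fold change was 0.27 (SE 0.22), with 0.13 without replicate 3 and 0.37 without replicate 2 of the 0%-Axitinib group. Counts per gene do not separate its spliced from its unspliced form.

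The levels of these chaperones were set beside markers of plasma cells, which hold much ER. Of 14 markers of B cells and plasma cells 12 were tested, 9 met the criterion lower and 0 higher, and their median log2 fold change was -4.51. Their summed level was 412, 1065 and 2089 CPM in the 0%-Axitinib group and 233, 203 and 253 CPM in the 3%-Axitinib group. Sdc1, which other cells also express, hardly differed (-0.21) and made up 166, 157 and 170 CPM of the latter. The most abundant gene of a list is given here as the one with the highest mean CPM over all 6 samples, which was Ighm, although Igkc led in the 0%-Axitinib group and Sdc1 in the 3%-Axitinib group. Jchain, a marker of antibody-secreting cells, was at 20.3, 95.6 and 190 CPM and then at 0.440, 0.091 and 0.637 CPM. The sample with the highest sum, replicate 3 of the 0%-Axitinib group, had the lowest Hspa5, Hsp90b1 and Xbp1 of its group. Endothelial markers were also lower, with 9 of 10 meeting the criterion, a median log2 fold change of -1.30, Pecam1 as the most abundant gene (Vwf in the 3%-Axitinib group), and sums of 933, 632 and 1011 CPM against 266, 290 and 403 CPM. For adipocytes 2 of 8 markers met it lower, the median was -1.27, Fabp4 was the most abundant, and the sums were 766, 715 and 967 CPM against 440, 311 and 320 CPM. Fewer cells of a type and less RNA per cell cannot be told apart in bulk tissue, and the part of these cells in the chaperone levels was not tested.

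Keratinocyte markers were high in 1 sample, which was also the one with the most Hspa5 and Hsp90b1. Their sum was 959 CPM in replicate 2 of the 0%-Axitinib group and between 4.80 and 10.3 CPM in the other samples. Krt1, the most abundant of the 8 through that sample, was at 273 CPM there, and its count was 0 in 4 of the other 5 samples. For macrophages 0 of 10 markers met the criterion, the median log2 fold change was 0.04, and Lyz2 was the most abundant. Their sums were 11753, 12200 and 8724 CPM against 8682, 10952 and 17200 CPM. What either cell type contributed to Hspa5 was not tested.

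A list of 20 ER chaperones and folding enzymes, which leaves out the 10 genes, was described beside Hspa5 and Hsp90b1. Of these 20 tested genes, 5 met the criterion lower and 1 higher, 15 had a log2 fold change below 0 and 5 above, and the groups did not overlap in 7 lower and 3 higher genes. The median was -0.30, and it ran from -0.44 to -0.14 as single samples were left out. Hyou1, the large HSP70-like exchange factor of BiP, was at 166, 203 and 127 CPM against 88.4, 66.6 and 90.0 CPM, a log2 fold change of -1.02. Sdf2l1, which works with the BiP cycle, had a log2 fold change of -1.09, and Ero1lb, an oxidase for disulfide bonds, one of -0.86. The other 2, named after their values were seen, were the lectin chaperone Canx (-0.73) and Creld2 (-0.60). Ppib, a prolyl isomerase that acts on collagen chains, was the 1 gene that met the criterion higher, at 0.80, and it missed it without replicate 2 of the 3%-Axitinib group (0.60). Calr, the most abundant gene of the list (P4hb in the 3%-Axitinib group), was at 1255, 1585 and 772 CPM against 937, 1216 and 880 CPM. Its groups overlapped and its log2 fold change was -0.25. Leaving out single samples gave 4 or 5 genes lower and 0 to 2 higher, 2 of them without replicate 3 of the 0%-Axitinib group.

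Genes of ER-associated degradation, which sends misfolded proteins back to the cytosol, showed no common direction. Of 15 tested genes 2 met the criterion lower and 0 higher, and the median log2 fold change was -0.01. These were Edem3 (-1.07) and Edem1 (-0.88), which trim mannose from misfolded glycoproteins. Os9, the most abundant gene of the list (Vcp in the 0%-Axitinib group), had non-overlapping groups in the other direction and a log2 fold change of 0.48 without meeting the criterion. The sensors and kinases were low to moderate in expression. Of 9 tested genes 1 met the criterion, Eif2ak2 (PKR), at 28.3, 32.3 and 41.4 CPM against 25.0, 23.7 and 17.3 CPM. That call had a log2 fold change of -0.63 and was lost when any of 4 samples was left out. It was smaller in 2 of these fits and not in the others, at -0.47 and -0.67 without replicate 3 or 2 of the 0%-Axitinib group and at -0.48 and -0.68 without replicate 3 or 2 of the 3%-Axitinib group. The call was also lost with the replicate number as a block, where the log2 fold change was -0.63. With single samples left out, 0 to 2 genes of this list met the criterion lower, 2 of them without replicate 3 of the 0%-Axitinib group. Mbtps1, the protease that cuts ATF6, was the most abundant, and its log2 fold change was 0.33 with overlapping groups. Ern2 had a count of 0 in all 6 samples.

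Atf4, the transcription factor at the centre of the integrated stress response, was level between the groups. It was at 192, 192 and 324 CPM in the 0%-Axitinib group and at 261, 200 and 262 CPM in the 3%-Axitinib group. The highest value of all, in replicate 3 of the 0%-Axitinib group, belonged to the sample that stood apart. Its log2 fold change was 0.03 (SE 0.29), below 0 with total counts (-0.093), and 0.33 without that sample. Genes with the most similar course were Mrpl9, Nap1l4 and Uqcrfs1, with root mean square differences of 0.065, 0.065 and 0.067 in centred log2 CPM over the 6 samples.

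Ddit3 encodes CHOP, a transcription factor that ATF4 induces and that promotes cell death under lasting stress. It was at 30.1, 24.8 and 27.9 CPM in the 0%-Axitinib group and at 34.6, 45.0 and 47.4 CPM in the 3%-Axitinib group. The groups did not overlap, with means of 27.6 ± 2.65 CPM (SD, n = 3) and 42.4 ± 6.79 CPM (SD, n = 3). Its log2 fold change was 0.62 (SE 0.20, adjusted p = 0.139 in edgeR's quasi-likelihood test with Benjamini-Hochberg adjustment). The criterion was missed with total counts (0.48), with the replicate number as a block (0.61) and without replicate 2 of the 0%-Axitinib group (0.54), replicate 2 of the 3%-Axitinib group (0.57) or replicate 3 of the 3%-Axitinib group (0.52). In GENCODE the gene shares 68 bases with Mars on the other strand. Trib3, a pseudokinase that CHOP and ATF4 induce and that dampens their action, was at 9.45, 9.91 and 7.98 CPM against 13.2, 7.74 and 15 CPM. The groups of Trib3 overlapped and its log2 fold change was 0.40 (SE 0.32), with 0.20 without replicate 3 and 0.63 without replicate 2 of the 3%-Axitinib group.

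Chac1, an enzyme that degrades glutathione and a late target of ATF4, showed the widest difference of the 10 genes. Its counts were 37, 17 and 34 reads in the 0%-Axitinib group and 462, 52 and 473 reads in the 3%-Axitinib group. In CPM these were 1.93, 0.991 and 1.85 against 50.8, 4.74 and 27.4. Each 3%-Axitinib sample exceeded each 0%-Axitinib sample, but replicate 2 was 10.7-fold below replicate 1. The log2 fold change was 4.11 (SE 0.84, adjusted p = 0.0965 in edgeR's quasi-likelihood test with Benjamini-Hochberg adjustment). Leaving out single samples moved it between 3.34, without replicate 1 of the 3%-Axitinib group, and 4.61, without replicate 2 of that group. Adjusted p ran from 3.27e-06 in DESeq2 to 0.280 over the alternatives.

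Skeletal muscle markers followed the same order of samples as Chac1 within each group, with replicate 1 highest and replicate 2 lowest. Their summed level was 139, 4.14 and 9.56 CPM in the 0%-Axitinib group and 12295, 16.3 and 7672 CPM in the 3%-Axitinib group. Of 10 markers 9 were tested and 7 met the criterion higher, 0 lower, their median log2 fold change was 7.09, and the most abundant was Acta1 (Myh4 in the 0%-Axitinib group). In replicate 2 of the 3%-Axitinib group, Ckm and Myh4 had a count of 0, and Acta1 was at 0.091 CPM. Tnnt3, Actn3 and Mylpf were at 7.38, 4.83 and 2.37 CPM there, and its sum of 16.3 CPM was above those of replicates 2 and 3 of the 0%-Axitinib group. Chac1 in replicate 2 of the 3%-Axitinib group, with little muscle RNA beside replicates 1 and 3, was 4.74 CPM, above the 1.93 CPM of the highest 0%-Axitinib sample. Replicate 1 of the 0%-Axitinib group held more muscle RNA than replicate 2 of the 3%-Axitinib group and less Chac1. The part of muscle in the difference of Chac1 was not tested.

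Asns encodes asparagine synthetase, a target of ATF4 that supplies asparagine during amino acid shortage. It was at 13.9, 8.81 and 32.1 CPM in the 0%-Axitinib group and at 35.1, 22.3 and 23.4 CPM in the 3%-Axitinib group. Replicate 3 of the 0%-Axitinib group again set the spread, and the groups overlapped only through it. The log2 fold change was 0.56 (SE 0.48), and it was 1.24 without that sample, when the criterion was met. Without replicate 2 of the 0%-Axitinib group it was 0.22. Of 16 genes for amino acid synthesis and transport 4 met the criterion higher and 0 lower, and the median was 0.30 in log2 fold change. They were the neutral amino acid transporter Slc1a4 (1.46), the proline enzymes Pycr1 (1.45) and Aldh18a1 (0.85), and the mitochondrial serine hydroxymethyltransferase Shmt2 (1.04). Without replicate 3 of the 0%-Axitinib group 8 met it higher and 1 lower, with a median of 0.70, and without replicate 1 or 2 of that group 2 met it higher, with a median of 0.096 without replicate 2. Pycr1 reached 24.3 CPM in replicate 2 of the 3%-Axitinib group and between 2.86 and 7.92 CPM elsewhere, and its log2 fold change was 0.66 without that sample. Slc3a2, the heavy chain of several amino acid transporters and the most abundant of the list, was at 0.28 with overlapping groups.

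A list of 12 cytosolic aminoacyl-tRNA synthetases, many of which ATF4 is known to induce, was described next, and the synthetases outside it were not examined. The 12 listed genes were all tested, all 12 had a log2 fold change above 0, 6 met the criterion higher and 0 lower, and the groups of 9 did not overlap. The median log2 fold change was 0.56, and it ran from 0.50 to 0.60 as single samples were left out. Mars, which charges methionine, was at 41.8, 46.6 and 44.6 CPM in the 0%-Axitinib group and at 86.2, 69.7 and 71.2 CPM in the 3%-Axitinib group, which gave a log2 fold change of 0.77. Yars was at 0.85, Gars at 0.71 and Sars, the most abundant, at 0.63. These differences were modest, so that with total counts 2 of the 12 met the criterion, with a median of 0.43.

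Genes of the translation factor eIF2 and its regulators lay on both sides of 0. Of 10 tested genes 4 met the criterion higher, all of them subunits of eIF2B, the exchange factor that recharges eIF2 with GTP, and 2 met it lower. The remaining eIF2B subunit, Eif2b4, did not meet it (0.20, named after its values were seen). Eif2b3 had a log2 fold change of 0.83 and Eif2b2 one of 0.70, while Eif2b1 (0.64) and Eif2b5 (0.60) were named after their values were seen. With total counts 1 of the list met the criterion higher, and with single samples left out 3 to 6, with medians from 0.26 to 0.66 around 0.36. Ppp1r15b, the constant partner of the phosphatase that removes the phosphate from eIF2, was at 108, 114 and 175 CPM against 72.7, 53.6 and 58.9 CPM, a log2 fold change of -1.10. The X-linked subunit Eif2s3x was at -0.66, and it missed the criterion without replicate 2 of the 0%-Axitinib group (-0.58). Eif2s2, the most abundant gene of the list (Ppp1r15b in the 0%-Axitinib group), was at 0.44 with overlapping groups.

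Of 14 other factors and effectors of the integrated stress response 13 were tested, and 5 met the criterion higher and 2 lower. Leaving out any single sample gave a count of 5 higher, while the number lower ran from 0, without replicate 2 of the 0%-Axitinib group, to 3. The median log2 fold change was 0.10, and it had no steady sign, from -0.18 without replicate 3 of the 0%-Axitinib group to 0.45 without replicate 1 of that group, and -0.03 with total counts. Nupr1, a small stress-induced chromatin protein and the most abundant of the list (Atf3 in the 0%-Axitinib group), was at 156, 69.3 and 92.2 CPM against 383, 444 and 325 CPM, a log2 fold change of 1.86. Vldlr, a lipoprotein receptor, was at 26.7, 18.1 and 18.1 CPM against 81.8, 72.2 and 71.2 CPM, or 1.84. Eif4ebp1, which restrains cap-dependent translation, was at 1.64, and Ddit4, an inhibitor of mTORC1, at 1.59. Atf5 (1.05) and the lower genes Tnfrsf10b (-1.02) and Gdf15 (-0.96) were named after their values were seen. Eif4ebp1 and Ddit4 were at 145 and 75.3 CPM in replicate 2 of the 3%-Axitinib group, below replicates 1 and 3 (282 and 247 CPM, and 193 and 150 CPM), as the muscle markers were. For both genes that replicate was still above every 0%-Axitinib sample, and the part of muscle in their differences was not tested. For Nupr1 that replicate was the highest of its group. Fgf21 was not tested, with between 0 and 0.597 CPM.

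**Figure D2:**
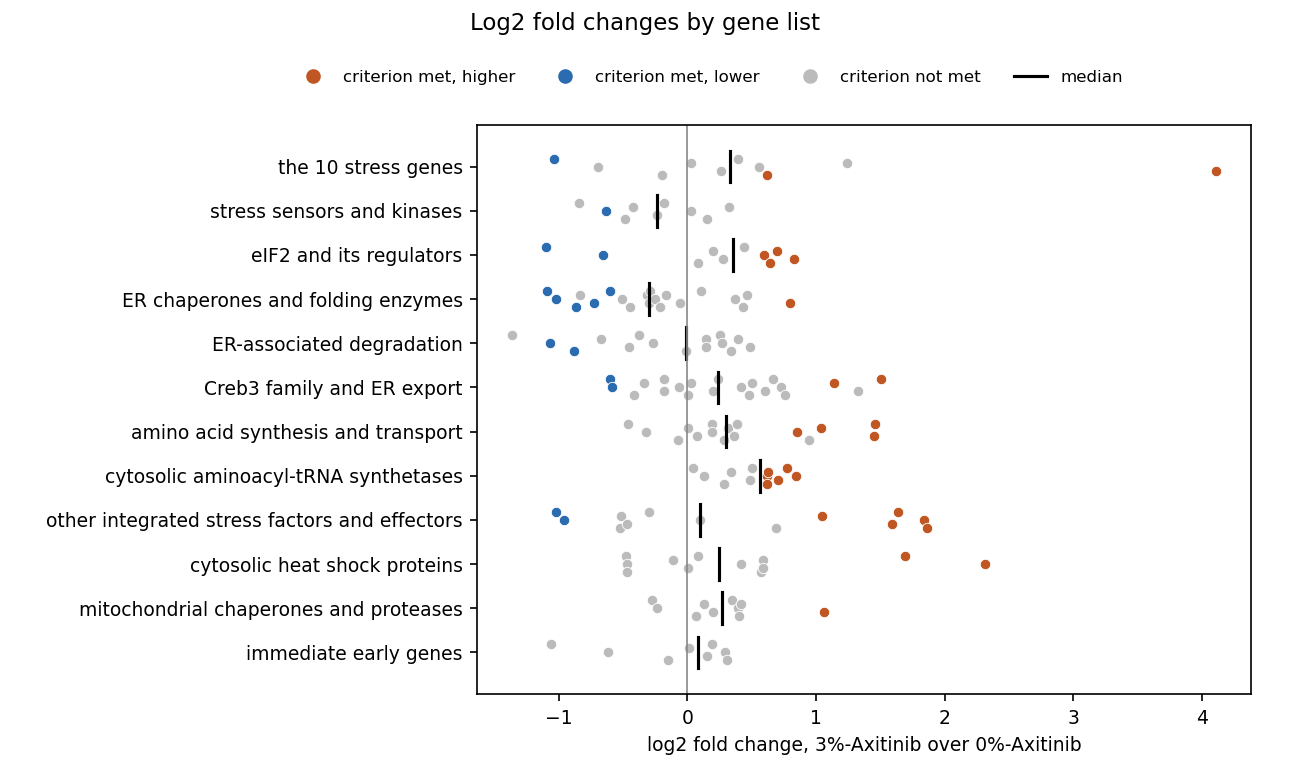
Log2 fold change of each tested gene, 3%-Axitinib over 0%-Axitinib, for the 10 stress genes and 11 gene lists. Each point is a gene, orange or blue where it met the criterion higher or lower and grey where it did not, and black bars are list medians. All 12 listed aminoacyl-tRNA synthetases lie above 0, and 15 of 20 ER chaperones and folding enzymes lie below.

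Creb3l1 encodes OASIS, a transcription factor kept in the ER membrane, which osteoblasts use to express type I collagen. It was at 41.5, 19.9 and 26.7 CPM in the 0%-Axitinib group and at 35.5, 128 and 44.6 CPM in the 3%-Axitinib group. Replicate 2 of the 3%-Axitinib group was 3.62-fold above replicate 1, and without it the groups overlapped as well. The log2 fold change was 1.24 (SE 0.53, adjusted p = 0.217 in edgeR's quasi-likelihood test with Benjamini-Hochberg adjustment), and 0.45 without that sample. Creb3l1 missed the criterion in all 6 samples and met it in DESeq2 (1.23), without a filter on low counts (1.20), and without replicate 1 of the 0%-Axitinib group (1.57) or of the 3%-Axitinib group (1.55).

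Col1a2, the alpha-2 chain of type I collagen, had the course most like that of Creb3l1 among the 9953 candidates. Its levels were 8133, 3907 and 4211 CPM against 6571, 23519 and 7931 CPM, and the root mean square difference in centred log2 CPM was 0.106. Clec11a (0.156) and Tmem119 (0.179) came next. Fibroblast markers summed to 26600, 13450 and 10372 CPM against 23330, 72165 and 25820 CPM, and 3 of 10 met the criterion higher, 0 lower, their median was 0.87 in log2 fold change, and Col1a1 was the most abundant (Col1a2 in the 0%-Axitinib group). Osteoblast and osteocyte markers summed to 322, 256 and 683 CPM against 1242, 12413 and 2293 CPM, and 2 of 8 met it higher, 0 lower, with a median of 1.27. Ibsp was the largest part of that sum (10536 CPM in replicate 2 of the 3%-Axitinib group), while the osteocalcin genes Bglap (-1.27) and Bglap2 (-0.91), named after their values were seen, lay below 0 with overlapping groups and were highest in replicate 3 of the 0%-Axitinib group. Cartilage markers summed to 360, 213 and 167 CPM against 310, 1237 and 475 CPM, with 5 of 8 tested meeting it higher, 0 lower, a median of 1.92 and Comp as the most abundant (Col2a1 in the 3%-Axitinib group). Replicate 2 of the 3%-Axitinib group held the highest sum of all 3 lists, as it did for Creb3l1, and their part in its level was not tested.

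Genes of the CREB3 family and of ER export were described beside Creb3l1. Of 21 tested genes 2 met the criterion higher and 2 lower, and the median log2 fold change was 0.24. With single samples left out, 1 to 5 met it higher (5 without replicate 3 of the 0%-Axitinib group) and 0 to 2 lower, and the median ran from 0.11 without replicate 2 of the 3%-Axitinib group to 0.40. Kdelr3, a receptor that returns ER residents from the Golgi, was at 21.9, 15 and 16.6 CPM against 29.5, 92.6 and 29.6 CPM, with the same high sample as Creb3l1. Its log2 fold change of 1.5 was 0.73 without that sample, and the criterion was missed without replicate 2 of the 0%-Axitinib group (1.39). Creb3l4 was low, at between 1.20 and 5.17 CPM, and its 1.14 missed the criterion whenever a sample was left out other than replicate 2 of the 0%-Axitinib group (0.76 without replicate 1 of the 3%-Axitinib group). Spcs2 (-0.60) and Spcs3 (-0.59), subunits of the signal peptidase, were lower, and each missed the criterion without replicate 2 or 3 of the 0%-Axitinib group or replicate 1 or 3 of the 3%-Axitinib group. For Spcs2 the same held without replicate 2 of the 3%-Axitinib group. Serpinh1 (HSP47), the collagen chaperone and the most abundant of the list, was at 789, 438 and 304 CPM against 569, 1479 and 544 CPM, a log2 fold change of 0.76 that was 0.12 without replicate 2 of the 3%-Axitinib group.

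**Figure D3:**
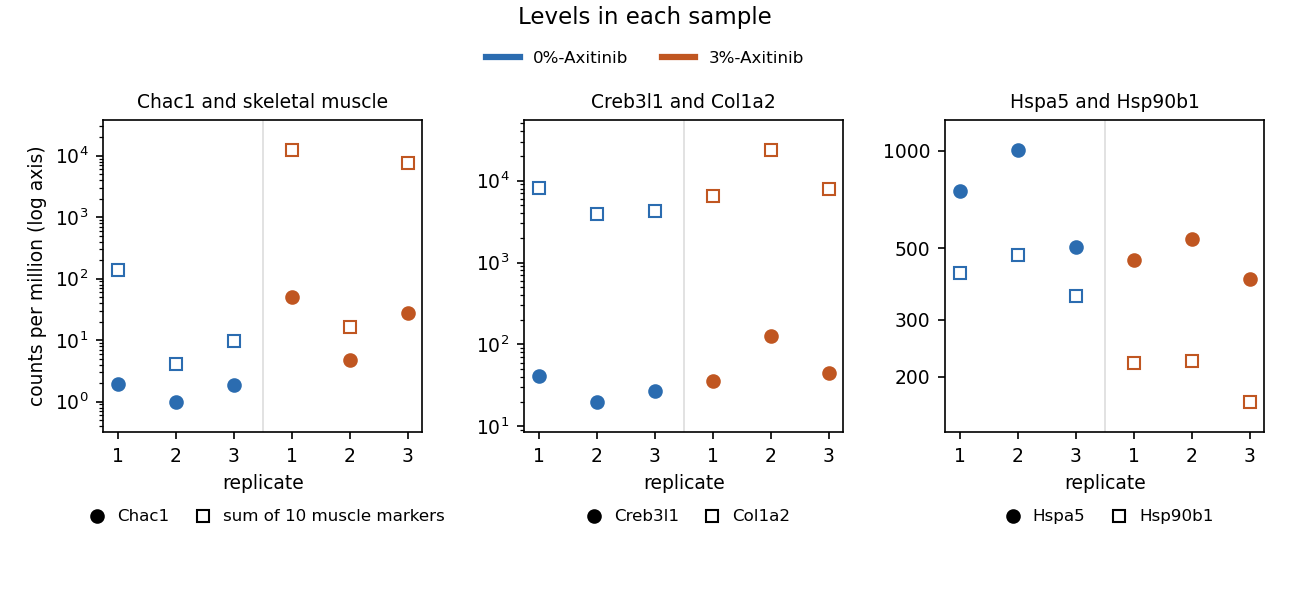
Levels in each sample, as CPM after TMM normalization on log axes, of Chac1 with the sum of 10 skeletal muscle markers, of Creb3l1 with Col1a2, and of Hspa5 with Hsp90b1. In the 3%-Axitinib group replicate 2 has 4.74 CPM of Chac1 with 16.3 CPM of muscle markers, and 128 CPM of Creb3l1 with 23519 CPM of Col1a2.

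Stress genes outside the ER gave a background to these values. Among 12 genes of the cytosolic heat shock response, Hsf1 included, 2 met the criterion higher and 0 lower, and the median was 0.25 in log2 fold change. With single samples left out, 1 to 4 met it higher and 0 to 1 lower, and the median ran from 0.12 to 0.37. The 2 were the small heat shock genes Hspb1 (2.32) and, named after its values were seen, Hspb8 (1.69), both of which muscle expresses strongly. As single samples were left out, Hspb1 ran from 1.63 to 2.64 and Hspb8 from 1.22 to 2.34, each lowest without replicate 1 of the 3%-Axitinib group. Hspb1 was at 42.2, 33.9 and 16.2 CPM against 269, 74.3 and 116 CPM, and in the 3%-Axitinib group it was lowest in the replicate with little muscle RNA. In the 0%-Axitinib group Hspb1 was lowest in replicate 3 and the muscle markers in replicate 2. The part of muscle in the differences of Hspb1 and Hspb8 was not tested. Hsp90ab1, the most abundant of the list, was at 0.01 and below 0 with total counts (-0.12). Of 10 mitochondrial chaperones and proteases 1 met the criterion, the protease subunit Clpp (1.06), the median was 0.27, and Hspa9, the most abundant, was at 0.20. Of 8 immediate early genes, which handling of tissue can induce, 0 met it in all 6 samples, and the median was 0.08 (-0.04 with total counts). Without replicate 1 of the 0%-Axitinib group 2 met it higher and without replicate 3 of that group 1 lower, and the median ran from -0.17 to 0.25 as single samples were left out. Junb, the most abundant, was at 0.15.

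Levels of different genes were compared per kilobase of exon (GENCODE, GRCm38). In the 0%-Axitinib group the mean order was Hspa5 at 178, Hsp90b1 at 104, Atf4 at 100.1, Xbp1 at 53.8, Dnajb9 at 17.7, Ddit3 at 16.1, Creb3l1 at 11.3, Asns at 6.68, Trib3 at 4.29 and Chac1 at 0.971 CPM per kilobase. The samples of Hsp90b1 and Atf4 overlapped, as did each neighbouring pair from Dnajb9 to Trib3, while Hspa5 and Hsp90b1 were apart by a narrow margin (lowest 119, highest 118). In the 3%-Axitinib group Hspa5 (110.1) and Atf4 (102) overlapped at the top, Xbp1 (64.7) came above Hsp90b1 (50.6), and Creb3l1 (26.7), Ddit3 (24.7), Chac1 (16.9) and Dnajb9 (15.5) followed with overlaps, before Asns (9.85) and Trib3 (5.64). By these means Hsp90b1 was in place 2 without and place 4 with axitinib, and it was in place 4 in each 3%-Axitinib sample and in place 3 in replicate 3 of the 0%-Axitinib group, below Atf4 and Hspa5. Chac1 was last in each 0%-Axitinib sample, and its mean in the 3%-Axitinib group joins unlike samples, with 31.0, 2.89 and 16.7 CPM per kilobase, so that in replicate 2 it was still last, below Trib3 (3.64).

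Promoters were searched for the letters of known stress elements, to describe which of these genes hold them. Windows from 250 bases before to 50 after each start came from RefSeq (GRCm38.p6), 32817 distinct windows in all, and 9 of the 10 genes matched. Creb3l1 had no window in the set used here, so its promoter was not searched. The ER stress element, read by ATF6 with NF-Y, was searched as CCAAT, 9 bases of any kind, and CCACG on either strand, and 0.119% of windows held it. Among the 10 genes it was found in Hspa5 (once, 65 to 47 bases before the start) and Hsp90b1 (in 2 places, 212 to 194 and 107 to 89 bases before the start), the pair of ER chaperones with the lowest log2 fold changes of the set. They are shown with 6 bases on each side and with CCAAT and CCACG in capitals.
Hspa5, chr2:34772019-34772049, plus strand: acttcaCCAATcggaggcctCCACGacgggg
Hsp90b1, chr10:86705632-86705662, minus strand: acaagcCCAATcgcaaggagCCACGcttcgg
Hsp90b1, chr10:86705527-86705557, plus strand: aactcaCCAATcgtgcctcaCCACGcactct

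Of the genes of the other lists, Calr, Canx, Creld2, Derl3, Dnajc3, Pdia6 and Syvn1 held the same element. With Hspa5 and Hsp90b1 these were 9 tested genes, of which 9 had a log2 fold change below 0, 3 met the criterion lower and 0 higher, and the median was -0.60. The 113 other tested genes of the 10 and the lists that had a window had a median of 0.19. Outside them, 8 more tested genes held the element, 4 above 0 and 4 below, with a median of -0.06, against -0.05 in the 10782 without it. Calr, Canx, Creld2, Dnajc3 and Pdia6 came from the list of 20 ER chaperones and folding enzymes, whose median was -0.30 with 15 below 0 and 5 above. In that list Sdf2l1 (-1.09) and Ppib (0.80) had windows without the element. Derl3 rested on 6, 12 and 41 reads in the 3%-Axitinib group. The element and the kind of gene cannot be told apart here. The grouping by element was made after the values were seen, and no test was run on it.

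The core of the element that ATF4 binds with a C/EBP partner was searched as TGATGNAA on either strand and stood in 3.97% of windows. It was found in Trib3, Chac1 and Asns, shown here with 6 bases on each side and the core in capitals.
Trib3, chr2:152344033-152344052, plus strand: cccggcTGATGTAAacctga
Chac1, chr2:119351043-119351062, minus strand: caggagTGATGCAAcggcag
Asns, chr6:7693219-7693238, minus strand: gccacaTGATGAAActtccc
With 14 genes of the lists they made 17 tested genes with the core, of which 14 were above 0 and 3 below (Atf3, Eif2s3x and Slc7a11), 8 met the criterion higher and 1 lower, and the median log2 fold change was 0.56. The 105 genes of the same lists with a window and no core had a median of 0.08. Outside the lists, 294 tested genes with the core had a median of -0.11, and 10496 without it one of -0.05. Aars, Gars, Iars, Tars and Yars came from the list of 12 synthetases, all above 0 with a median of 0.56, and Sars of that list had a window without the core. In the list of 20 ER chaperones and folding enzymes, with a median of -0.30, the core was found in Txndc5 alone. The core and the kind of gene cannot be told apart here. The grouping by core also followed the values and was not tested.

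Further letters searched on both strands were CCACG alone, which is part of the ER stress element (32.8% of windows, 6 of the 10 genes), TGATGNAAT, a longer form of the ATF4 core (0.966%, 0 of the 10), TGACGTG (2.01%, Hspa5 alone) and GACGTCA (3.21%, 0 of the 10). A match describes the letters of a window and does not show that a factor binds there.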

How the data were processed

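RNA of 6 samples, harvested with the entangled murine tissues, was sequenced on an Illumina HiSeq 2000 after selection of polyadenylated RNA. The authors deposited raw read counts per gene, made after Fastp had filtered the reads and STAR 2.5.2b had aligned them to mm10 (GRCm38). The annotation release and strand setting were not given in the sources used here. The table had 4 rows that name no gene (unmapped, multimapping, outside genes, ambiguous), and they entered neither the library sizes nor the fits. The unmapped share was 8.08 ± 5.99% (SD, n = 3) in 0%-Axitinib libraries and 31.5 ± 15.9% (SD, n = 3) in 3%-Axitinib libraries.

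The analysis used edgeR 4.0.16 under R 4.3.3: filterByExpr (minimum count 10, minimum total 15), TMM, the quasi-likelihood test of the 3%-Axitinib against the 0%-Axitinib group (glmQLFit, glmQLFTest) and Benjamini-Hochberg adjustment over 15257 genes. SE is the absolute log2 fold change over the root of the F statistic. Log2 CPM used a prior count of 2. The steps were tested on simulated counts with the same dispersion for every gene and no outlying sample, which these data do not share. Alternatives were DESeq2 1.42.0, limma-voom (limma 3.58.1), other scalings and filters, a fold change of 2, the replicate number as a block and each sample left out. Exact permutation tests over 3 against 3 samples cannot go below p = 0.1 and were not used. Python 3.11.15 with matplotlib 3.10.9 made the figures.

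The members and the lists were chosen with earlier results of these data known. The text names all 10 members, and from each of 11 lists (148 genes, 146 tested) the most abundant tested gene (highest mean CPM over the 6 samples) and up to 4 genes that met the criterion without overlap, by largest absolute log2 fold change. It also names the 3 genes most like Hspa5, Atf4 and Creb3l1, and other genes are said to be named after their values were seen. Lists of markers covered skeletal muscle, B cells and plasma cells, endothelium, macrophages, fibroblasts, osteoblasts and osteocytes, cartilage, adipocytes and keratinocytes.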

Additional observations from a re-analysis of the deposited data

How the results depend on the processing

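The 10 genes were fitted under 14 alternatives each, 140 values in all, of which 122 kept their direction and their side of the criterion, 8 newly met it, 5 no longer met it and 5 changed sign. All 5 sign changes were in Atf4: -0.093 with total counts, and -0.10, -0.10, -0.020 and -0.029 without replicate 1 or 2 of the 0%-Axitinib group and without replicate 1 or 3 of the 3%-Axitinib group, while without replicate 3 of the 0%-Axitinib group it was 0.326. Hsp90ab1, near 0, changed sign with total counts (-0.12), in DESeq2 (-0.0059), in limma-voom (-0.021), without a filter (-0.015), with at least 10 counts in every sample (-0.0044), under the block (-0.016) and without replicate 2 of the 0%-Axitinib group (-0.017), replicate 1 (-0.06) or replicate 3 (-0.10) of the 3%-Axitinib group, and reached 0.171 without replicate 2 of the latter. Junb changed sign without replicate 1 of the 3%-Axitinib group (-0.016) and was 0.238 without replicate 3.

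Leaving out single samples gave 1 to 3 of the 10 genes higher and 1 to 2 lower by the criterion. With total counts 1 was higher and 2 lower (of all tested genes, 989 and 2448). In DESeq2 3 were higher and 2 lower (of its 26823 genes, 1722 and 2225), and with a fold change of at least 2, 1 was higher and 1 lower. After adjustment, DESeq2 called 2 of the 10 genes, and single samples left out gave 0 to 1. Over all tested genes, 1456 met the criterion higher and 1785 lower at a fold change of 1.5, and leaving out single samples at that same fold change gave 1055 to 2274 higher and 1308 to 2148 lower. Raising the fold change to 2 in all 6 samples left 879 higher and 1072 lower. The threshold of 0.05 on the adjusted p was passed by 1703 genes in DESeq2, 2 in limma-voom, 15 without a filter, and 0 to 1252 with single samples left out. The cause was not tested. The median log2 fold change of the 10 genes stayed between 0.26 and 0.35 in the latter.

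Samples of the 2 groups share replicate numbers, and the deviations of same-numbered samples correlated at 0.18, -0.12 and -0.17 across genes. The highest value, 0.21, joined replicate 3 of the 0%-Axitinib group and replicate 2 of the 3%-Axitinib group, which stood apart. These values show no pairing by number, and with 3 samples per group they cannot exclude one. Replicate 1 of each group correlated best with its own number and the others did not. With the replicate block 1 of the 10 genes was higher and 1 lower by the criterion, beside 1249 and 1354 of all 15257 tested genes. In that fit 2 tested genes passed the adjusted threshold. Depth limits the low genes: Chac1 rests on 17 to 37 reads per sample in the 0%-Axitinib group.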
